A study of Mus musculus with 27 samples.

Results

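The 8 genes described here are the platelet-derived growth factor (PDGF) ligand genes Pdgfa, Pdgfb, Pdgfc and Pdgfd, the receptor genes Pdgfra and Pdgfrb, and Cspg4 and Cd248, which encode surface proteins of vascular mural cells. They were chosen by symbol, as family members or as genes of activated mural cells, and were 8 of the 40129 genes in the table. All 8 passed the filter on low values. All samples were whole retinas of wild-type C57BL/6 pups (C57BL/6J in the study's methods), with 1 or 2 retinas per mouse. Pups of the oxygen-induced retinopathy (OIR) model breathed 75% oxygen from day 7 to day 12 and room air afterwards, and were killed at postnatal day 14 (p14), in the hypoxic phase, or at day 17 (p17), when retinal neovascularization (RNV) is at its height. Control pups (nOIR) stayed in room air throughout. Compared were 6 nOIR and 6 OIR mice at p14, and 6 nOIR and 8 OIR mice at p17. Mouse S4 of nOIR p14 was left out here, as it was by the authors, who named lens contamination as the reason. Several pups came from one litter, and which mouse came from which litter was not known here, so all tests take mice as independent.

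PDGFs are paired growth factor chains that bind PDGFRA and PDGFRB, both receptor tyrosine kinases. Sprouting endothelial cells release PDGF-B, which draws PDGFRB-bearing pericytes onto new vessels. In the developing retina, neurons of the ganglion cell layer supply PDGF-A to PDGFRA-bearing astrocytes, whose network guides the first vessels. PDGF-C and PDGF-D are secreted in a latent form and bind their receptors only after a protease has cut them. NG2, the product of Cspg4, and endosialin, the product of Cd248, sit on pericytes of growing vessels.

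At p17, limma called 6 of the 8 genes higher in OIR mice (Benjamini-Hochberg adjusted p under 0.05 over the 27137 genes tested), and 7.39% of all genes tested were called higher. These were Cd248, Cspg4, Pdgfb, Pdgfrb, Pdgfra and Pdgfa, in order of size. Of the 8 genes, 0 were lower at p17 by limma, edgeR or DESeq2 or at an unadjusted p under 0.05, against 5.12% of all genes by limma. A log2 fold change above 2 was reached by 2 of them, Cd248 and Cspg4, against 1.9% of all genes. At p14, by the same test, Pdgfra and Cd248 were higher, 2 of 8 against 3.18% of all genes, and Pdgfd was lower, 1 of 8 against 2.91%. None of the 8 passed a log2 fold change of 2 at p14, where 0.744% of all genes did. Over the 8 genes the median change (log2) was 0.14 at p14 and 1.07 at p17, beside 0.02 and -0.02 over all genes tested.

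**Figure D1:**
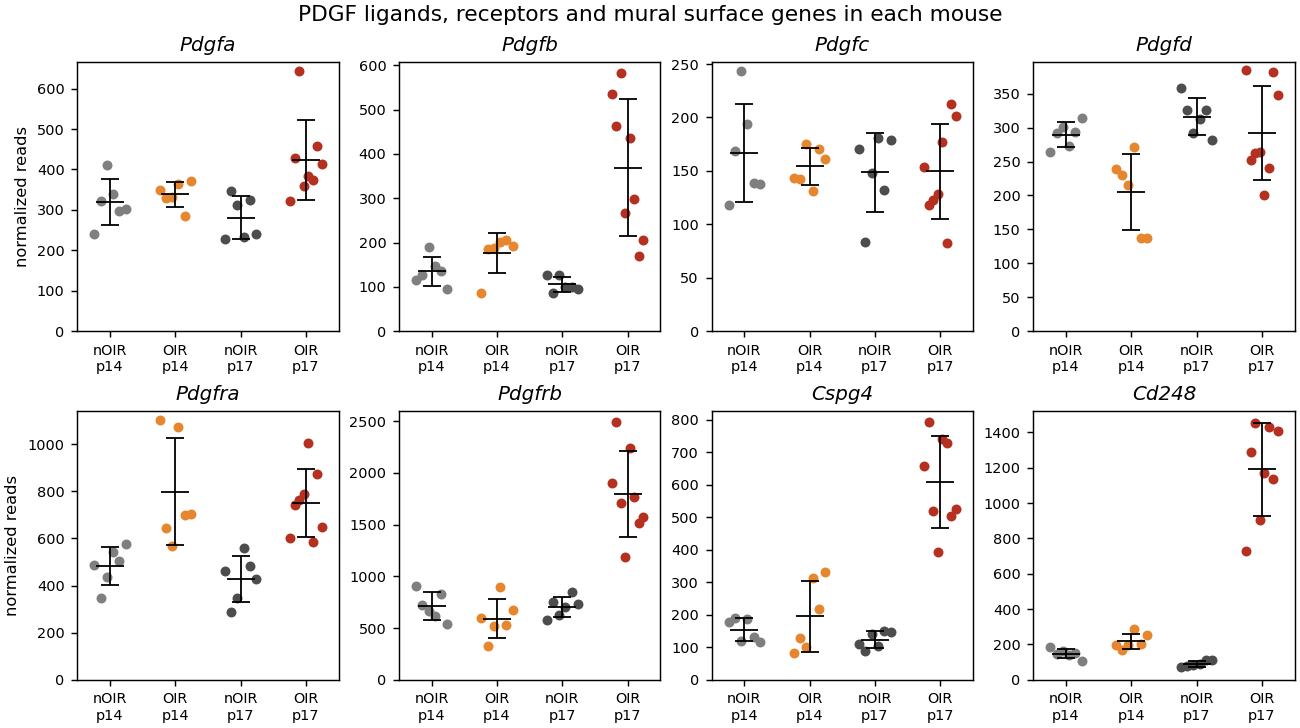
Normalized reads of the 8 genes (vertical axes from 0, one scale per gene) in each of the 26 mice, by group. Each point is 1 mouse, the short bar is the group mean and the whiskers are 1 SD; OIR p17 mice lie above every nOIR p17 mouse for Pdgfb, Pdgfra, Pdgfrb, Cspg4 and Cd248.

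In 5 of the 8 genes every OIR p17 mouse lay above every nOIR p17 mouse, a separation that 5.87% of all genes tested showed in one direction or the other. At p14 no gene of the 8 separated the groups, against 3.77% of all genes. The plot of normalized reads by mouse shows both patterns. Retinas were sequenced as bulk tissue, so fewer cells of a type and less RNA per cell cannot be told apart in any of these values.

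Pdgfb encodes the chain that endothelial cells present to pericytes, and it was the ligand gene with the largest change. In nOIR p17 mice it ranged from 86.1 to 127.1 normalized reads with a median of 100.3, and in OIR p17 mice from 169.2 to 582.4 with a median of 366.3. The groups did not overlap, and the OIR p17 mice were themselves widely spread, with S3 and S1 highest and S7 and S8 lowest. Pdgfb rose 3.21-fold at p17 (log2 fold change 1.68, standard error 0.24, adjusted p = 6.55e-06, limma), and the exact permutation test, two-sided, gave p = 0.000666. At p14, OIR mice ranged from 86.5 to 205.2 with a median of 190.6, and nOIR mice from 95.2 to 190.2 with a median of 131.2. One OIR p14 mouse, S1, lay below all nOIR p14 mice, and the log2 fold change of 0.36 (standard error 0.26) had an adjusted p of 0.54 by limma.

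Pdgfa, whose product binds PDGFRA, stood at 228.0 to 345.7 normalized reads in nOIR p17 mice, with a median of 277.1, and at 322.0 to 644.9 in OIR p17 mice, with a median of 399.3. All 8 OIR p17 mice were above the nOIR median, yet the groups overlapped, and S3 stood well above the other 7. The gene rose 1.49-fold (log2 fold change 0.58, standard error 0.14, adjusted p = 0.0041, limma). Without S3 the log2 fold change was 0.49 and the adjusted p by limma 0.00899. At p14 the medians were 311.2 in nOIR and 339.5 in OIR mice, with a log2 fold change of 0.10 (95% confidence interval -0.21 to 0.41).

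The latent ligands behaved otherwise. Pdgfd fell at p14, from 264.6 to 314.0 normalized reads in nOIR mice (median 292.8) to 136.7 to 271.4 in OIR mice (median 222.8). All OIR p14 mice were below the nOIR median, S5 and S6 were lowest, and the groups overlapped only where OIR mouse S4 reached the nOIR range. On the log2 scale the change was -0.54 with a standard error of 0.17. Its adjusted p of 0.0491 by limma was close to the threshold, and the call was lost when any of 19 mice was left out singly, with adjusted p between 0.0229 and 0.151 over all 26. It was also lost under 8 of 12 other settings, among them edgeR (adjusted p = 0.0749) and rescaling to the same total (adjusted p = 0.083, limma), and was kept by DESeq2 (adjusted p = 0.0341). At p17, Pdgfd had medians of 319.3 in nOIR and 263.2 in OIR mice, and its log2 fold change of -0.15 (95% confidence interval -0.47 to 0.17) did not pass the test.

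Pdgfc had the smallest changes of the 8 genes. Its medians were 153.3 normalized reads in nOIR and 152.4 in OIR mice at p14, and 159.1 and 141.0 at p17. The intervals of its log2 fold change ran from -0.52 to 0.37 at p14 and from -0.42 to 0.41 at p17, so changes within those limits are not excluded by these mice. Within OIR p17 it ranged from 82.6 in S6 to 212.2 in S7.

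**Figure D2:**
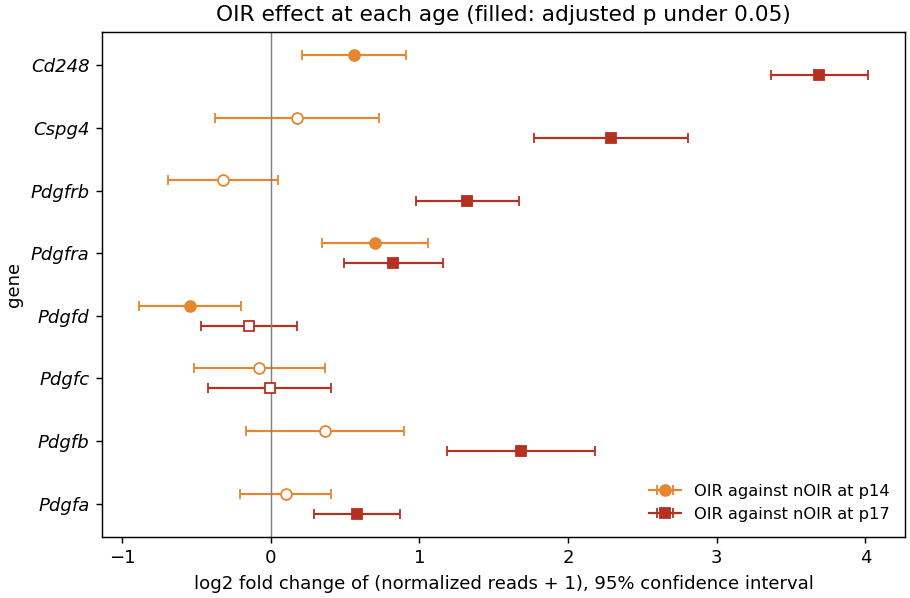
Log2 fold change of normalized reads plus 1 (horizontal axis), OIR against nOIR mice, for each of the 8 genes at p14 (circles) and p17 (squares), with 95% confidence intervals from limma. Filled symbols have an adjusted p under 0.05. Pdgfra has nearly equal changes at both ages (0.70 and 0.82). The intervals at p14 and p17 lie apart for Cd248, Cspg4, Pdgfrb and Pdgfb.

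Of the receptors, Pdgfra was raised at both ages. At p14 it ranged from 347.4 to 574.6 normalized reads in nOIR mice (median 494.7) and from 568.7 to 1102 in OIR mice (median 703.2). OIR mice S1 and S4 were highest, and the groups met only where the lowest OIR mouse, S3, fell below the highest nOIR mouse. The change was 1.63-fold (log2 fold change 0.70, standard error 0.17, adjusted p = 0.0114, limma), and it was called under all 38 alternatives run. At p17 nOIR mice ranged from 286.8 to 558.0 (median 442.8) and OIR mice from 583.0 to 1006 (median 751.6), without overlap. That was 1.77-fold (log2 fold change 0.82, standard error 0.16, adjusted p = 0.000511, limma). The difference between the changes at both ages was 0.12 on the log2 scale, with an interval from -0.37 to 0.61.

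Retinal astrocytes and oligodendrocyte precursors both bear PDGFRA, so markers of both lineages were read beside it. The summed normalized reads of the 4 astrocyte markers, led by Gfap and Aldh1l1, ran from 1027 to 1799 in nOIR p14 and from 2857 to 8809 in OIR p14 mice, and from 1121 to 1637 in nOIR p17 and 3060 to 10123 in OIR p17 mice. Of these markers 2 rose at p14, Gfap and Aldh1l1, and 3 at p17, with Pax2 added, by limma, against 3.18% and 7.39% of all genes. Pax2 was not called at p14, where Pdgfra was. The sum, led by Gfap, is therefore not read as a level of astrocytes. The 6 oligodendrocyte lineage markers, led by Mbp, summed to 1016 to 1415, 669.3 to 1507, 1126 to 1305 and 917.0 to 13906 in nOIR p14, in OIR p14, in nOIR p17 and in OIR p17 mice. Of the 5 tested, Olig1 alone was called, as higher, at both ages, and Olig2 was at 0 in all nOIR p14 mice. The sum of 13906 belonged to OIR p17 mouse S7, whose Pdgfra of 872.5 was second in its group, and without S7 the log2 fold change of Pdgfra at p17 was 0.79 (adjusted p = 0.00134, limma). The part of either cell type in the Pdgfra values was not tested.

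Pdgfrb, the receptor of pericytes and smooth muscle, changed at p17 and did not pass the test at p14. In p14 retinas it ranged from 543.2 to 907.4 normalized reads in nOIR mice (median 692.4) and from 325.3 to 894.1 in OIR mice (median 561.5). All but 1 OIR mouse, S4, were below the nOIR median, and the log2 fold change was -0.32 (95% confidence interval -0.69 to 0.05, adjusted p = 0.392, limma). With 1 mouse left out it ran from -0.46 to -0.17, with adjusted p between 0.153 and 0.705 (limma). By p17 the OIR mice stood at 1189 to 2492 (median 1739), above nOIR mice at 578.6 to 852.6 (median 719.4). Mouse S2 was highest and S4 lowest among the OIR p17 mice, and the groups did not overlap. Pdgfrb rose 2.50-fold (log2 fold change 1.32, standard error 0.17, adjusted p = 1.02e-06, limma). A two-sided exact permutation test gave p = 0.000333, below which 8 mice against 6 cannot go. The same p held for Pdgfra, Cspg4 and Cd248 at p17.

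Cspg4 had a larger change than either receptor at p17. It ranged from 88.4 to 148.4 normalized reads in nOIR p17 mice (median 126.0) and from 392.0 to 791.8 in OIR p17 mice (median 592.0). The lowest OIR mouse, S4, was well clear of the highest nOIR mouse. The change was 4.88-fold, with a 95% confidence interval from 3.41 to 6.98 (log2 fold change 2.29, standard error 0.25, adjusted p = 7.01e-08, limma). At p14 nOIR mice ranged from 115.1 to 189.3 (median 154.9) and OIR mice from 80.8 to 331.9 (median 172.7). The OIR p14 mice fell on both sides of the controls, S4, S5 and S6 above all nOIR p14 mice and S1 and S3 below all of them, so the group had an SD of 108.8 beside 35.2 in nOIR mice. The log2 fold change at p14 was 0.18 (95% confidence interval -0.38 to 0.73), and without S6 it was -0.018.

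Cd248 changed most. In nOIR p17 mice it ranged from 69.4 to 113.2 normalized reads (median 86.8), and in OIR p17 mice from 729.6 to 1454 (median 1232). All 8 OIR mice were far above the controls, with S1 and S4 lowest. The fold change was 12.9, with a 95% confidence interval from 10.3 to 16.2 (log2 fold change 3.69, standard error 0.16, adjusted p = 5.08e-16, limma). At p14 the gene ranged from 107.8 to 183.8 in nOIR mice (median 146.5) and from 169.6 to 284.7 in OIR mice (median 201.9). All OIR p14 mice were above the nOIR median, and only the lowest, S2, reached into the nOIR range. The p14 log2 fold change of 0.56 (standard error 0.17) had an adjusted p of 0.0466 by limma, which was above 0.05 when any of 16 mice was left out singly (range 0.0252 to 0.135 over all 26). With S4 of nOIR p14 included it was 0.0944.

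Promoter sequences are shown for Cspg4 and Pdgfra, which rose, and for Pdgfc, which passed at neither age. The bases upstream of called and uncalled members can thus be set side by side. They are the 250 bases before the start site, read 5′ to 3′ on the gene's strand from the RefSeq table of build GRCm38.p6, in which 5 of the 8 genes had an entry (these and Pdgfa and Pdgfd). Capitals mark a CArG box, the element bound by serum response factor, and lie in the last 17 bases of the Pdgfc window.
Cspg4, chr9:56864854-56865103, plus strand: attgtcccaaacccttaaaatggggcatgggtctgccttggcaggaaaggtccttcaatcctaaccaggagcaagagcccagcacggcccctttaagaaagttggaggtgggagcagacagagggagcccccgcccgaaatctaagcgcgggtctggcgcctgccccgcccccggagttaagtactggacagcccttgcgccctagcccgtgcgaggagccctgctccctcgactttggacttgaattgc
Pdgfra, chr5:75152001-75152250, plus strand: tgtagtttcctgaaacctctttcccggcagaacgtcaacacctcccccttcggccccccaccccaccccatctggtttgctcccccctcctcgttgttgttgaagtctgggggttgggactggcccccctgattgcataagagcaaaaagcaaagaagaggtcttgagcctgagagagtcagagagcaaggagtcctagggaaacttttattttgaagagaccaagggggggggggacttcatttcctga
Pdgfc, chr3:81036166-81036415, plus strand: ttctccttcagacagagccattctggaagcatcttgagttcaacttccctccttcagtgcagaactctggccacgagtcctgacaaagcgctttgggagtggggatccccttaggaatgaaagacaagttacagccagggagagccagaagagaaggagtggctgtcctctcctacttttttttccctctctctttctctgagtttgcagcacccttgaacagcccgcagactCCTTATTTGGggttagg

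Both strands were searched for the hypoxia response cores ACGTG and GCGTG, for TATAAA and for the CArG box, none of which overlapped in these windows. Of 32851 mouse promoters of the same length, 16.6% held ACGTG, 28.2% GCGTG, 12.4% TATAAA and 1.47% a CArG box. The windows of Cspg4 and Pdgfra held none of the 4. Of the promoters not printed, Pdgfd held TATAAA 160 bases before its start, and 1 of 2 listed starts of Pdgfa had GCGTG on the opposite strand 231 bases before it. These matches describe letters only.

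The next comparison asked whether the OIR change itself differed between p14 and p17. Postnatal age and phase of the model cannot be told apart in it. The change at p17 minus that at p14 passed limma's test in 3 of the 8 genes, all of them higher at p17, against 1.43% of all genes tested. It was 3.13 on the log2 scale for Cd248 (standard error 0.23, adjusted p = 1.18e-09), 2.11 for Cspg4 (standard error 0.37, adjusted p = 0.00101) and 1.64 for Pdgfrb (standard error 0.25, adjusted p = 0.000152). These 3 genes are the mural ones of the list. For Pdgfb the difference was 1.32 (standard error 0.35, adjusted p = 0.0532, limma), which edgeR and DESeq2 called (adjusted p = 0.0301 and 0.0042). It was called under 6 of 11 other settings, these tools included. By limma, edgeR or DESeq2, 0 of the 8 had a smaller change at p17, also at an unadjusted p under 0.05, against 0.147% of all genes by limma.

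Changes with age within each treatment show which groups moved. In nOIR mice between p14 and p17, 0 of the 8 genes changed by limma or edgeR, while DESeq2 called 1, Cd248, as lower, and so did an unadjusted p under 0.05. Among all genes, 0.158% were higher and 0.158% lower by limma. Cd248 went from a median of 146.5 to 86.8 normalized reads in these controls, and all nOIR p17 mice lay below the nOIR p14 median (log2 fold change -0.70, standard error 0.17, adjusted p = 0.0732, limma). In OIR mice 5 of the 8 were higher at p17 than at p14 by limma, against 4.11% of all genes, namely Cd248, Cspg4, Pdgfrb, Pdgfb and Pdgfd. Their log2 changes were 2.43, 1.80, 1.64, 0.99 and 0.52, with adjusted p of 3.16e-11, 2.06e-05, 1.2e-07, 0.0105 and 0.044. The call of Pdgfd was lost without any of 14 mice and under 6 of 12 other settings, with adjusted p up to 0.191 (limma). Pdgfb lost its call with the compared groups only (adjusted p = 0.0595, limma). None of the 8 was lower by limma, edgeR, DESeq2 or an unadjusted p under 0.05, against 1.81% of all genes by limma. Pdgfra had a log2 change of -0.07 between the OIR groups (95% confidence interval -0.40 to 0.27).

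Within each mouse, ratios between these genes describe the change in balance and were not tested. Cd248 over Pdgfrb had a median of 0.201 in nOIR p14 mice (0.179 to 0.243) and of 0.381 in OIR p14 mice (0.318 to 0.521). At p17 it was 0.129 in nOIR mice (0.103 to 0.149) and 0.754 in OIR mice (0.383 to 0.897). The ratio thus did not overlap between OIR and nOIR mice at either age. At p14 its genes went in opposite directions, with log2 fold changes of 0.56 for Cd248 and -0.32 for Pdgfrb. Pdgfrb did not pass the test there. Pdgfra over Pdgfrb was highest in OIR p14 mice, with a median of 1.27 (1.05 to 1.98) beside 0.633 (0.480 to 1.06) in nOIR p14, and stood at 0.573 (0.382 to 0.794) in nOIR p17 and 0.430 (0.297 to 0.662) in OIR p17 mice.

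**Figure D3:**
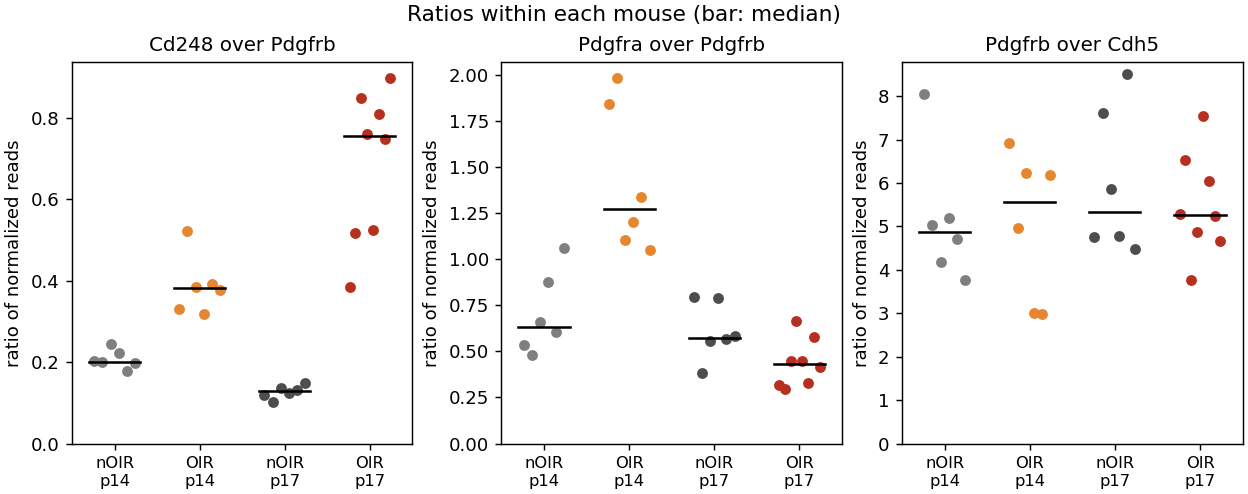
Ratio of normalized reads within each mouse (vertical axes from 0), by group, for Cd248 over Pdgfrb, Pdgfra over Pdgfrb and Pdgfrb over Cdh5. Each point is 1 mouse and the bar the median; the first ratio separates OIR from nOIR mice at both ages, and the third has medians between 4.88 and 5.57 in all 4 groups.

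Pdgfrb was also set against Cdh5, which encodes the endothelial cadherin. Cdh5 had medians of 144.0 and 97.6 normalized reads in nOIR and OIR p14 mice and of 114.1 and 316.8 in nOIR and OIR p17 mice. Pdgfrb over Cdh5 had medians of 4.88 in nOIR and 5.57 in OIR mice at p14 and of 5.32 and 5.27 at p17, with the 4 ranges overlapping. Cd248 over Cdh5 had medians of 1.01 in nOIR and 2.31 in OIR mice at p14, with overlapping ranges, and of 0.725 (0.570 to 1.13) and 3.81 (2.03 to 4.89) at p17, where they did not overlap. Cspg4 over Cdh5 had medians of 1.06 and 1.23 at p14 and of 0.90 (0.694 to 1.48) and 1.79 (1.14 to 2.49) at p17, with overlapping ranges at both ages. Pdgfb over Cdh5 had medians of 0.951 and 1.47 at p14 and of 0.937 and 1.15 at p17, again with overlapping ranges. Pdgfb over Pdgfrb had medians of 0.175 in nOIR and 0.327 in OIR mice at p14. At p17 they were 0.136 (0.115 to 0.220) and 0.190 (0.112 to 0.340), and these ranges overlapped too.

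Levels of different genes were compared per kilobase of exon. In nOIR mice of both ages Pdgfrb had the highest mean, 130.4 and 129.2 normalized reads per kilobase, and Cspg4 the lowest, 12.8 and 10.3. In OIR p17 mice Cd248 was first at 457.0 ± 100.7 (SD, n = 8) per kilobase and Pdgfrb second at 328.3 ± 75.6, and the ranges of these neighbours overlapped. The third, Pdgfa, at 135.6 ± 31.8 per kilobase, lay below every Pdgfrb value. Cspg4 at 50.9 per kilobase was then no longer last, a place held by Pdgfc at 29.4, and these neighbours overlapped as well. In OIR p14 mice the order ran from Pdgfa at 108.4 and Pdgfrb at 107.4 per kilobase to Cspg4 at 16.3, with every gene overlapping the next.

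The mural genes were read beside wider lists of vessel cells. Of all genes tested, limma called 3.18% higher and 2.91% lower in OIR mice at p14, and 7.39% and 5.12% at p17. Of 15 pericyte markers, 7 were lower and 3 higher in OIR mice at p14 by limma, with a median log2 fold change of -0.92, and at p17 10 were higher and 1 lower, with a median of 1.36. Rgs5, a G protein regulator of pericytes and with Vtn the most abundant of the list, had log2 changes of -1.10 and 1.84. Summed normalized reads of the list ran from 21657 to 28014 in nOIR p14, 17597 to 24974 in OIR p14, 23297 to 33798 in nOIR p17 and 33203 to 50443 in OIR p17 mice. The sum was led by Vtn, which limma called lower at p14 and did not call at p17. Between the nOIR ages, 0 of the 15 markers were called, with a median log2 change of -0.12. The sum is therefore not read as a level of pericytes. Of 6 smooth muscle markers, led by Acta2 and Myl9, 2 rose at p14 and 5 at p17. Of 10 endothelial markers, led by Kdr and Esam, 1 rose and 1 fell at p14 and 8 rose at p17.

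Other cell types were checked the same way, again beside 3.18% of all genes higher and 2.91% lower at p14 by limma. At p17 these shares were 7.39% and 5.12%. The 6 fibroblast markers, led by Col1a2 and Col3a1, summed to 348.6 to 719.0 normalized reads in nOIR p17 and 1382 to 4308 in OIR p17 mice, and by limma 1 of them rose at p14, Col1a1, and 3 at p17. All 5 markers of dividing cells rose at both ages, with sums of 6.6 to 52.0 in nOIR p17 and 637.2 to 1063 in OIR p17 mice. Of 5 macrophage and microglia markers 1 rose at p14, C1qa, and 4 at p17, and of 3 platelet markers, which summed to at most 216.3 in any mouse, Pf4 rose at p17. Of 7 ganglion cell markers, 2 fell at p14 and 4 at p17. The part of these cells in the values of the 8 genes was not tested. Lens markers varied from 33.7 to 31988 summed normalized reads across mice, highest in OIR p17 mouse S2, which also had the highest Pdgfrb and Cspg4. With log2 Cryaa, a lens gene, as a covariate, all 6 genes called at p17 were called again, while of the 3 called at p14 Pdgfra was called again and Pdgfd (adjusted p = 0.0697, limma) and Cd248 (adjusted p = 0.0748, limma) were not. Retinal pigment epithelium markers summed to 601.1 to 5543 across mice, 4 of 5 Müller glia markers fell at p14 and 3 of 5 at p17, and of 5 photoreceptor markers 1 fell at p14 and 2 fell at p17.

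The wider PDGF pathway was followed in 42 genes listed by role. At p14, 5 of the 42 were higher by limma (3.18% of all genes) and 0 lower (2.91% of all genes), with edgeR calling 0 and DESeq2 1 as lower and 4 lower at an unadjusted p under 0.05. At p17, 12 were higher and 1 lower, against 7.39% and 5.12% of all genes. For the whole list the median change (log2) was 0.02 at p14 and 0.04 at p17, beside 0.02 and -0.02 over all genes tested.

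Among proteases that can release active ligand, 1 of 5 changed, at both ages. This was Plat, which encodes tissue plasminogen activator, the activator of PDGF-C. It ranged from 633.6 to 845.7 normalized reads in nOIR p14 and from 1146 to 2202 in OIR p14 mice (log2 fold change 1.28, standard error 0.13, adjusted p = 1.6e-07, limma). At p17 it ranged from 596.0 to 800.9 in nOIR and from 1750 to 2774 in OIR mice (log2 fold change 1.83, standard error 0.12, adjusted p = 7.57e-12, limma). The groups did not overlap at either age, while Pdgfc itself passed at neither.

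Of 5 co-receptors and extracellular partners, Hspg2 rose at p14, and Hspg2, Nrp1 and Sparc at p17. Hspg2 encodes perlecan, a heparan sulfate proteoglycan of basement membranes. Its levels were 150.7 to 232.0 normalized reads in nOIR p14, 251.5 to 626.2 in OIR p14, 90.3 to 194.8 in nOIR p17 and 405.2 to 1050 in OIR p17 mice, without overlap at either age. It rose by 1.05 at p14 (log2 scale; standard error 0.25, adjusted p = 0.0076, limma) and by 2.41 at p17 (standard error 0.23, adjusted p = 5.91e-09, limma).

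Of 19 adaptors and effectors, the adaptor genes Shc1 and Gab1 rose at p17. Of 8 negative regulators, 1 rose at p17, the tyrosine phosphatase gene Ptpn1. Both counts are near the 7.39% of all genes that were higher at p17, so nothing is read from them about these roles.

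Transcripts induced by growth factor signalling were the role in which all members passed. Fos, Myc and Fosl1 rose at p14, and all 5, with Egr1 and Ier3, at p17. Myc ranged from 47.5 to 83.0 normalized reads in nOIR p14 and 94.8 to 202.2 in OIR p14 mice, and from 15.9 to 43.6 in nOIR p17 and 113.6 to 344.1 in OIR p17 mice, without overlap at either age. It rose by 0.94 (log2) at p14 (standard error 0.26, adjusted p = 0.0242, limma) and 2.41 at p17 (standard error 0.24, adjusted p = 1.17e-08, limma). Fosl1 was at 0 in all nOIR p17 mice and reached at most 1.0 normalized read in nOIR p14 mice, beside 1.1 to 18.8 in OIR p14 and 1.6 to 23.1 in OIR p17 mice, so no fold is given (adjusted p = 0.000357 and 3.86e-06, limma). These genes also respond to many other signals.

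**Figure D4:**
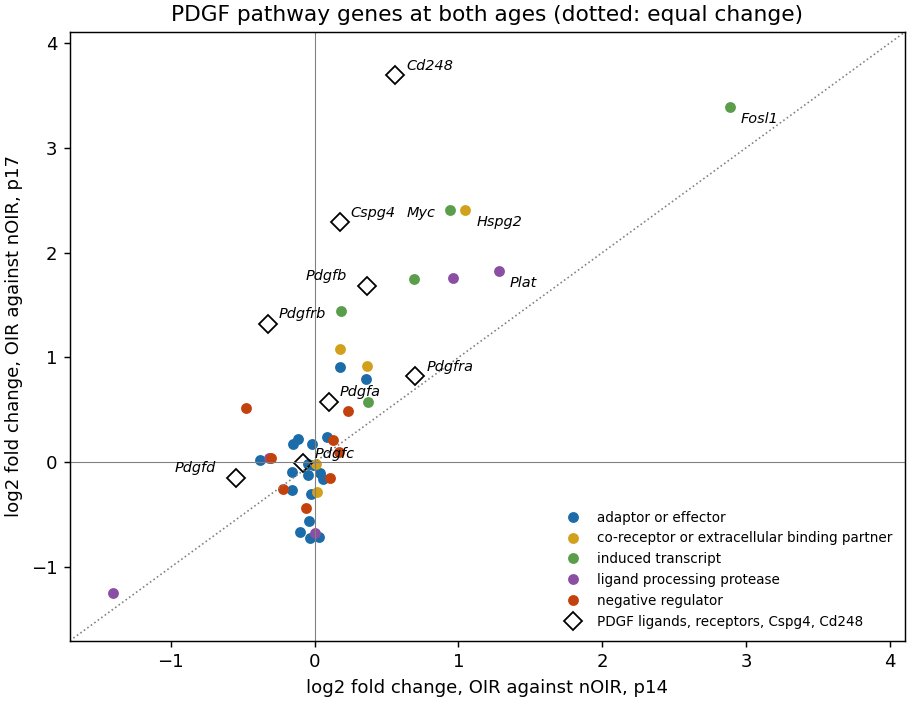
Log2 fold change of OIR against nOIR mice at p14 (horizontal) and p17 (vertical) for the 42 pathway genes, coloured by role, and for the 8 genes (open diamonds). Points above the dotted line had the larger value at p17; Fosl1, Myc, Hspg2 and Plat are the labelled pathway genes.

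As a last description, the genes whose log2 values followed each member most closely over the 26 mice were sought among the 19004 genes that averaged 10 normalized reads or more. Differences between the groups enter such a correlation, so one after centring each group is given second. Centring does not remove differences between mice of a group, such as depth. Cspg4 was closest to the basement membrane collagens Col4a2 (0.96, centred 0.82) and Col4a1 (0.93, centred 0.81) and to Notch3 (0.93, centred 0.78), the Notch receptor of mural cells. Pdgfrb was closest to Tie1 (0.93, centred 0.64), Vwf (0.92, centred 0.78) and Col3a1 (0.91, centred 0.71), of which the first are endothelial genes. Cd248 was closest to Cd34, Cald1 and Cnn2, each at 0.97, but centred values were only 0.35, 0.48 and 0.58.

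The ligands and Pdgfra had other neighbours. Pdgfb was closest to Igfbp7 (0.90, centred 0.65), Slc7a5 and Gm49937, and Pdgfa to the actin gene Actb (0.85, centred 0.75), Arhgdia and Pfn1. Pdgfra was closest to Matn2 (0.88, centred 0.69), Vwa5a and Cd74. The closest to Pdgfc was Armcx2 (0.69, centred 0.73), followed by Cnot7 and Tifab, and the closest to Pdgfd was St3gal6 (0.77, centred 0.58), followed by Il15 and Rin2. Among the 8 genes themselves, Cd248 and Cspg4 had the highest correlation over all mice, 0.91, and Cd248 and Pdgfrb the highest after centring, 0.57, while Cspg4 and Pdgfd stood at -0.40 after centring.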

How the data were processed

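The authors prepared whole-retina libraries with a SMARTer kit, which does not mark strand, mapped reads with STAR 2.7.8a to Gencode M28, counted them with featureCounts 2.0.1 and scaled each mouse by a DESeq2 1.34 size factor, so that the deposited signal is normalized reads. The authors' group means, log2 fold changes and adjusted p-values in the same deposited table were not used. Whole reads were recovered from 100% of values (within 0.001 of a whole number) and ranged from 17029536 to 33593428 per mouse. PCR copies were not removed. Between mice of a group the lowest chi-square per degree of freedom was 9.39, so none was a copy.

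Limma 3.58.1 (trend) in R 4.3.3 was fitted to log2(normalized reads + 1) of the 4 groups at once, over 27137 genes with a mean of at least 1, with Benjamini-Hochberg adjustment. Fold changes are on that scale and understate low genes. The limma fit was tested on simulated data, of which no outcome is reported here. Exact permutation tests used scipy 1.17.1 in Python 3.11.15. Alternatives were pseudocounts of 0.1 and 10, no filter beyond a value above 0, a minimum mean of 10, S4 included, the compared groups only, the mouse number as a block, rescaling to one total, quantile normalization, edgeR 4.0.16, DESeq2 1.42.0, log2 Cryaa as a covariate, and omission of each mouse in turn.

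Genes and lists were chosen with earlier results of these data known. Named are all 8 genes, the called pathway genes with up to 3 largest changes in each direction at each age, the 2 most abundant genes of each marker list and the 3 nearest genes of each of the 8. Cdh5 and the genes listed as called within a list were named in addition, after their values were seen. Same-numbered mice were correlated above 0.1 in 7 of 34 pairs, so numbers were not taken to pair mice. Exon lengths came from Gencode M21. In it, exons of Pdgfa, Pdgfc and Pdgfra overlap antisense or other genes by up to 354, 147 and 341 bases. Reads from these stretches cannot be assigned to one gene without strand, and whether they were counted or left out was not checked. No protein sequences were used. Some genes that this rule would name are not reported here.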

Additional observations from a re-analysis of the deposited data

Results flagged for a closer look

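Samples far from the rest of their group were sought in 32 groups (8 genes in 4 groups) by Dixon's criterion, which chance alone meets in about 1 of 20 groups, and 2 met it. Pdgfa had 644.9 normalized reads in OIR p17 mouse S3, beside 322.0 to 458.2 in the other 7 mice. Pdgfb had 86.5 in OIR p14 mouse S1, beside 185.7 to 205.2 in the other 5. Without S3, the OIR change of Pdgfa at p17 was 0.49 on the log2 scale, and without S1 that of Pdgfb at p14 was 0.56.

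The OIR change differed between p17 and p14 by limma's test of the difference, with Benjamini-Hochberg adjustment, in Cd248 (3.13 on the log2 scale), Cspg4 (2.11) and Pdgfrb (1.64). Of the 42 pathway genes, 6 passed the same test with a value above 0 (p17 minus p14) by limma, against 1.43% of all genes, as did 5 by edgeR and 7 by DESeq2. With a value below 0, 0 passed by any of these tools and 1 had an unadjusted p under 0.05 by limma. The differences were 1.47 for Myc (standard error 0.35, adjusted p = 0.0244, limma), 1.36 for Hspg2 (standard error 0.34, adjusted p = 0.0326, limma), 1.06 for Fos, 1.00 for Spry4, 0.91 for Nrp1 and 0.74 for Shc1. Spry4, a negative regulator of growth factor signalling, was named after its value was seen.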

How the results depend on the processing

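The 6 calls at p17 were made under all 38 alternatives, as was Pdgfra at p14. The count of changed members at p14, 3, became 1 with a pseudocount of 10, all genes above 0, the compared groups only, the replicate block, quantile normalization or Cryaa as a covariate, and 1 to 3 with a mouse left out (1 without any of 12 mice). For nOIR mice from p14 to p17, the count of 0 became 1 with S4 included, on rescaling, with DESeq2 or with Cryaa, and 0 to 1 with a mouse left out (Cd248, without nOIR p14 S7 or OIR p17 S1). For OIR mice over the same days, the 5 became 3 with the compared groups only, where Pdgfb and Pdgfd were lost. Pdgfd was also lost without any of 14 mice. Without nOIR p14 S7 or OIR p17 S4, S7 or S8 the difference between ages in Pdgfb was called (1.37 to 1.46), as it was with a mean of at least 10 (adjusted p = 0.0417, limma), S4 of nOIR p14 included (0.0359) or rescaling (0.0489). Pathway genes higher at p14, 5, numbered 3 without OIR p14 S1 and 3 to 6 over all mice left out. Pathway genes lower numbered 1 at p14 with DESeq2, and at p17 0 on rescaling, 2 with edgeR or DESeq2, and 1 to 3 with a mouse left out.

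Sign changed only in values that passed no test. Pdgfc at p17 was 0.059 on rescaling, 0.013 with edgeR and 0.00472 with DESeq2, and its difference between ages -0.071 with the replicate block and -0.069 with quantile normalization. With a mouse left out, Pdgfc ran from -0.17 to 0.041 at p14, -0.16 to 0.11 at p17, -0.085 to 0.18 for the difference and -0.18 to 0.017 in OIR mice with age, Cspg4 at p14 from -0.018 to 0.39, Pdgfrb in nOIR mice with age from -0.077 to 0.071, and Pdgfra in OIR mice with age from -0.16 to 0.035. The causes were not tested.

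The replicate block took the mouse number as a term, although numbers were not taken to pair mice (correlations of -0.23 to 0.33 between same-numbered mice). Differently numbered mice were not correlated for comparison, so pairing is not excluded. The block moved the p14 count to 1 and called Pdgfb for the difference between ages (1.68, adjusted p = 0.0057, limma).

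Over all genes, rescaling gave 2406 higher and 964 lower at p17 (2005 and 1390 before) and 1019 and 609 at p14 (862 and 790 before). From p14 to p17 in nOIR mice, 43 and 43 became 107 and 80 with the compared groups only, 39 and 79 on rescaling, 109 and 127 with DESeq2, 22 and 12 without nOIR p14 S3, 26 and 20 without nOIR p17 S4, and 64 and 67 without OIR p14 S1. In OIR mice over the same days, 1114 and 491 became 806 and 212 with the compared groups only. For the difference between ages, 389 and 40 became 255 and 14 with the block and 597 and 93 with DESeq2.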
